A study of Mus musculus with 16 samples.

Results

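Reprogramming fibroblasts that received siRNAs against Wdr5 were compared with those that received siRNAs against Brca1 or Bard1, 6 days after the reprogramming factors were switched on. The members are 6 of the 16 libraries of the series: the 2 siWdr5 libraries of day 6 on one side, and the 2 siBrca1 and 2 siBard1 libraries of day 6 on the other. They were chosen by their labels alone. Of 18990 genes in the deposited table, the 14028 with a mean of at least 0 on the log2 CPM scale over all 16 libraries were tested (CPM, read counts scaled to a common library size). The other libraries, nt control (non-targeting siRNA) at both days and all 3 knockdowns at day 3, are used where a result needs them.

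All groups were wild-type mouse embryonic fibroblasts (MEFs) of the C57BL/6 strain carrying lentiviruses for a doxycycline-inducible OSKM cassette (Oct4, Sox2, Klf4 and c-Myc from a single transcript) and for its transactivator rtTA. Doxycycline, a GSK3 inhibitor, an Alk5 inhibitor, ascorbic acid and LIF were in the medium of every group, nt control included. The siRNAs, pooled per gene, were given at 40 nM the day before induction, so by design the groups differ in the siRNA alone. RNA was taken from the whole culture, in which only some cells reprogram, and a knockdown by siRNA is incomplete and transient. In such bulk libraries fewer cells of a type and less RNA per cell cannot be told apart. The 2 libraries of a group came from independent experiments.

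WDR5 is a shared core subunit of the MLL/SET complexes, which methylate histone H3 at lysine 4, a mark of active promoters. BRCA1 and BARD1 form an obligate heterodimer that acts as a ubiquitin ligase and in homologous recombination repair of DNA breaks. On the way to pluripotency, fibroblasts give up matrix, contractile and other mesenchymal genes, take on epithelial genes in a mesenchymal-to-epithelial transition, and only later switch on the endogenous pluripotency network.

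The reagents that define the groups are shown by their guide strands, the strand that pairs with the target mRNA. The study pooled several siRNAs per gene, and 2 of each pool, read from its library table, are shown. The remaining siRNA of each pool is not shown here. Sequences run 5′ to 3′ with the seed, bases 2 to 8, in capitals, and the exon is the targeted exon as that table numbers it.
Wdr5, exon 3: cAUAGUUUggcuuaacuggtg
Wdr5, exon 7: cACGGUUGaaaugaacggctg
Brca1, exon 3: aAGGACAUugugaaggccctt
Brca1, exon 4: aCUAAACCuugugcuuccctg
Bard1, exon 2: aGAAGAUGugcucacaucctc
Bard1, exon 3: uUGUCGGUuuaucuugaggtc
The 6 guides shown have 6 distinct seeds, and the seeds of the remaining siRNAs were not compared.

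The day 6 libraries held 11169738 to 26832534 reads (median 13129595), with siWdr5 replicate 2 the deepest, and a gene with 3 reads lay between 0.115 and 0.260 CPM. None of the targeted transcripts set its own group apart at day 6. Wdr5 stood at 85.5 and 72.4 CPM in siWdr5 (replicates 1 and 2, an order kept throughout), 92.8 and 83.5 in siBrca1, 89.2 and 112 in siBard1 and 91.8 and 98.1 in the nt control. The siWdr5 values overlapped with those of siBrca1, and the log2 difference between siWdr5 and the mean of siBrca1 and siBard1 was −0.25 (SE 0.12, adjusted p = 0.206, limma). Brca1 was at 35.9 and 40.1 CPM in siBrca1 against 42.6 and 38.3 in siWdr5, and Bard1 at 12.6 and 14.5 CPM in siBard1 against 11.9 and 13.2 in siWdr5, with no difference past the test. At day 3, Wdr5 had been at 50.6 and 55.3 CPM in siWdr5, 68.9 to 96.6 in the siBrca1 and siBard1 libraries and 132 and 130 in the nt control. All 3 targets were lower in each knockdown group than in the nt control at day 3, the non-targeted ones included: Bard1 was at 18.0 and 20.8 CPM in siBard1, 9.07 to 15.3 in the other knockdown libraries and 30.5 and 29.1 in the nt control. By RT-qPCR at day 3, the study itself reported efficient knockdown for all 3 targets.

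**Figure D1:**
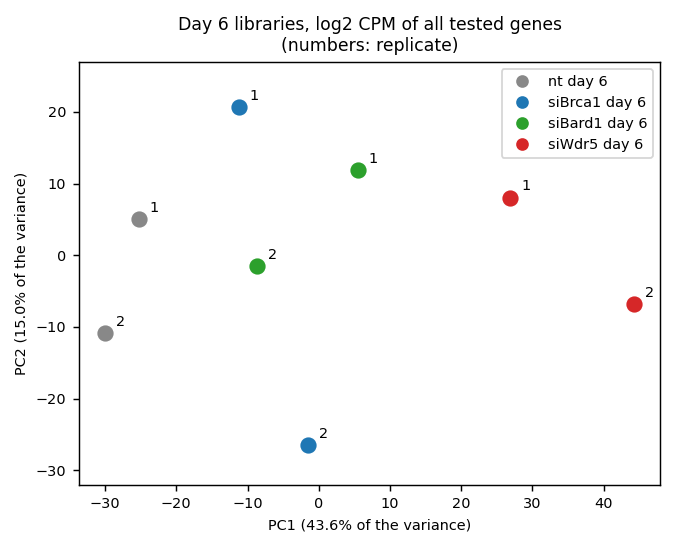
First and second principal component (PC1, PC2) of the 8 day 6 libraries from the log2 CPM of all 14028 tested genes, 1 point per library, colours for the siRNA and numbers for the replicate. Along PC1, with 43.6% of the variance, both siWdr5 libraries sit at 26.9 and 44.3, the siBrca1 and siBard1 libraries between −11.3 and 5.46, and the nt control at −25.3 and −30.0.

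Differences were tested with limma on the deposited log2 CPM, and a gene was called at an adjusted p below 0.05 and an absolute log2 difference above 1. Between siWdr5 and the mean of siBrca1 and siBard1, 167 genes were called (1.19% of those tested), 119 of them higher (0.848%) and 48 lower (0.342%) in siWdr5. Without the fold threshold 890 genes passed the adjusted p (6.34%), 547 higher (3.9%) and 343 lower (2.45%). The 2 siWdr5 libraries lay above or below all 4 others for 162 of the 167 genes, and for 36.4% of all tested genes. All 167 differed in the same direction from siBrca1 and from siBard1 taken singly. Both counts follow largely from calling the genes on these same libraries and are no separate support. The calls rest mainly on siWdr5 replicate 2, the deepest library and the farthest out on PC1: 4 genes were called without it, and 100 without siWdr5 replicate 1, 55 of them among the 167. Modelling the spread with no trend on expression left 10 calls, all higher.

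The lowest adjusted p-values in siWdr5 belonged to a pair of secreted proteins. Serpina3n, a secreted protease inhibitor of the acute phase response, stood at 153 and 214 CPM in siWdr5, 37.0 and 49.4 in siBrca1, 49.7 and 37.1 in siBard1 and 19.9 and 19 in the nt control. Every siWdr5 value was above every other one, and siBrca1 and siBard1 overlapped. The log2 difference was 2.08 (SE 0.17, 95% interval 1.69 to 2.46, adjusted p = 0.00144). Sfrp2, a secreted antagonist of Wnt signalling, was at 81.9 and 91.3 CPM in siWdr5, 21.3 and 24.3 in siBrca1, 26.9 and 22.5 in siBard1 and 22.5 and 16.6 in the nt control. The 6 libraries of the other groups spanned 16.6 to 26.9 CPM, and the siWdr5 libraries lay above them, with a log2 difference of 1.87 (SE 0.15, 95% interval 1.54 to 2.20, adjusted p = 0.00144) from the other knockdowns. Of the Sfrp2 exon bases 16.1% overlap an antisense gene, whose reads could not be separated if strand was not used in counting. Serpina3n lies on chromosome 12 (104406729 to 104414329, plus strand) and Sfrp2 on chromosome 3 (83766321 to 83774316, plus strand) in mm10.

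Several of the other leading rises were rare transcripts. Prg4, which encodes the joint lubricant lubricin, had the largest rise of the named genes, 2.24 (SE 0.32, adjusted p = 0.0112), at 5.93 and 9.11 CPM in siWdr5 (84 and 235 reads) and 1.26 to 2.36 CPM in the siBrca1 and siBard1 libraries. Abcc9, a regulatory subunit of ATP-sensitive potassium channels, rose by 2.18 (adjusted p = 0.024) and Megf6 by 2.11 (adjusted p = 0.022). A2m, the protease inhibitor alpha-2-macroglobulin, rose by 2.05 (adjusted p = 0.0151) from 0.83 to 1.35 CPM in the compared knockdowns to 4.13 and 4.83 CPM. Serpinb2, an inhibitor of plasminogen activators, differed by 2.09 (adjusted p = 0.0341), and 12.4% of its exon bases are shared with Serpinb10. Rgs4, a regulator of G protein signalling, differed by 2.01 (adjusted p = 0.0272), the metalloprotease Adamts15 by 1.92 (adjusted p = 0.00959) and the glucosidase Mgam by 1.89 (adjusted p = 0.0155). Wt1, a transcription factor of mesothelium and developing kidney, was higher by 1.89 (adjusted p = 0.0363), with uneven siWdr5 replicates at 7.93 and 3.57 CPM against 1.08 to 2.54 CPM.

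**Figure D2:**
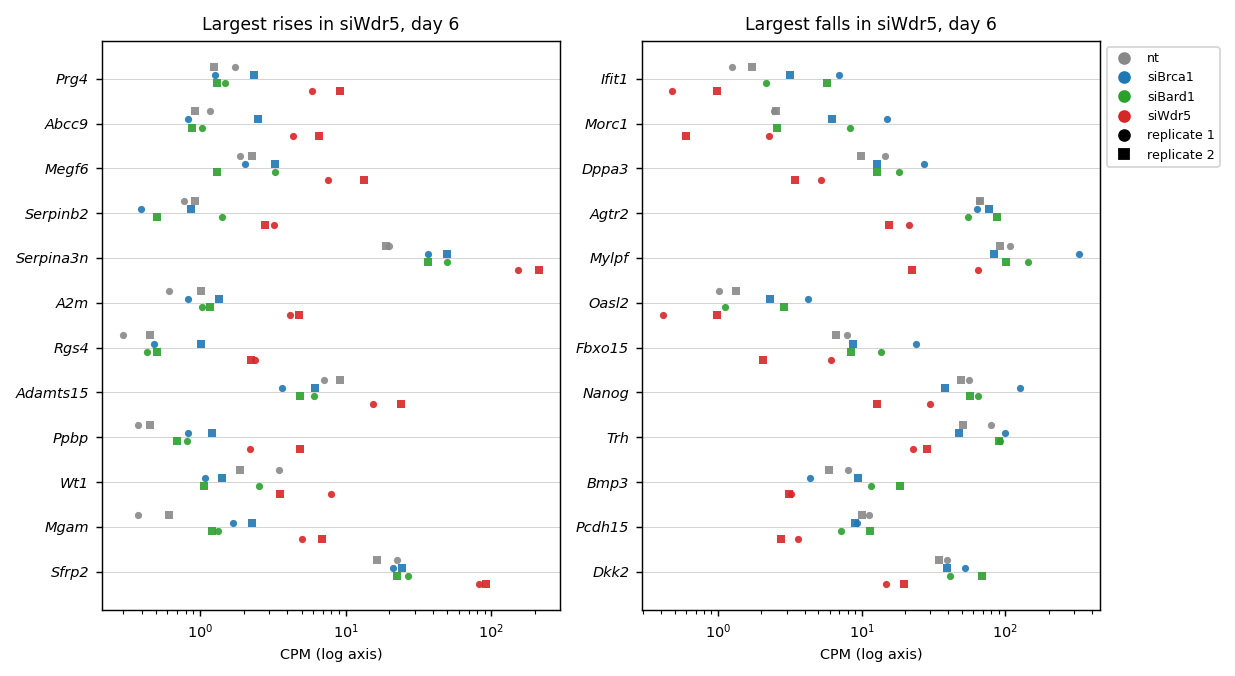
CPM on a log axis of the 12 largest rises (left) and 12 largest falls (right) in siWdr5 at day 6, 1 point per library, coloured by siRNA with circles for replicate 1 and squares for replicate 2. The red siWdr5 points lie outside the range of the 4 siBrca1 and siBard1 points in every row, as the choice of these genes requires, while the grey nt points lie on either side of the siBrca1 and siBard1 points, as for Serpina3n at 19.9 and 19 CPM.

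Of 27 collagen genes tested, 10 rose in siWdr5 at adjusted p below 0.05, none fell and 17 did not pass. The share that rose, 37%, stood beside 3.9% of all tested genes. The median log2 difference was 0.66, beside 0.06 for all tested genes. Col1a1, a chain of the main fibrillar collagen, was at 3507 and 5181 CPM in siWdr5, 1445 and 1833 in siBrca1, 2344 and 1793 in siBard1 and 1048 and 1016 in the nt control. The siWdr5 libraries were above all others and the nt control below all others. The log2 difference was 1.22 (SE 0.21, 95% interval 0.76 to 1.69, adjusted p = 0.0205). Its partner chain Col1a2 rose by 0.84 (adjusted p = 0.0244), the regulatory fibrillar collagen Col5a1 by 0.88 (adjusted p = 0.0241) and the transmembrane collagen Col23a1 by 1.06 (adjusted p = 0.0112).

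Among 45 glycoproteins, proteoglycans and matrix enzymes tested, 11 rose and 1 fell, with a median of 0.43. The passing share was 26.7%, beside 6.34% of all tested genes. Fbln2, an elastic fibre glycoprotein, stood at 633 and 847 CPM in siWdr5 against 213 to 397 CPM in siBrca1 and siBard1 (log2 difference 1.33, SE 0.21, adjusted p = 0.0155). Adamts2, which removes the amino-terminal propeptide of procollagen, was at 103 and 119 CPM against 49.6 to 61.7 CPM (1.01, SE 0.10, adjusted p = 0.00268). Timp3, an inhibitor of matrix metalloproteases, rose by 1.18 (adjusted p = 0.0247), with 21.3% of its exon bases overlapping the antisense gene Syn3. The exception was Postn, for the matricellular protein periostin, which fell by 1.37 on the log2 scale (SE 0.22, adjusted p = 0.0155). It was at 24.3 and 24.8 CPM in siWdr5, 36.2 and 47.3 in siBrca1 and 69.9 and 137 in siBard1, and the difference was −1.99 from siBard1 (adjusted p = 0.0137) and −0.75 from siBrca1 (adjusted p = 0.101).

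Of 25 contractile and smooth muscle genes, 2 rose, Mylk (myosin light chain kinase, 1.14, adjusted p = 0.038) and the focal adhesion gene Vcl (0.70, adjusted p = 0.0356), around a median of 0.51. That share, 8%, stood beside 6.34% of all tested genes passing in either direction and 3.9% rising. For Vcl, 25.5% of the exon bases overlap the antisense gene Ap3m1. Of 28 mesenchymal transcription factors, 5 rose and 1 fell (median 0.27), a passing share of 21.4% beside 6.34% of all tested genes. Those that rose included Snai1, a repressor of epithelial genes, at 71.3 and 97.6 CPM against 43.2 to 64.7 CPM (0.76, adjusted p = 0.0386), Alx4 (0.91, adjusted p = 0.03) and Runx1 (0.61, adjusted p = 0.0241). The 9 fibroblast markers measured summed to 7339 and 10419 CPM in siWdr5 and 4278 to 5890 CPM in the siBrca1 and siBard1 libraries. The nt control stood at 3967 and 3928 CPM, and 3 of the 9 markers rose in siWdr5. Most of that sum was Col1a1, Col1a2 and Col3a1, and its part in the matrix results was not tested. Markers outside the collagens were mixed. Between siWdr5 (14102198 and 26832534 reads in all) and siBard1 (12943067 and 20085723), Lum had 1566 and 3726 against 1935 and 4399 reads. Pdgfrb had 2644 and 5620 against 1659 and 1926. In siBrca1 (11169738 and 13316123 reads in all) Lum had 1057 and 2996 reads and Pdgfrb 1039 and 1582. Thy1 had 6619 and 13070 reads in siWdr5, 4472 and 6002 in siBard1 and 4929 and 4955 in siBrca1. Smooth muscle markers summed to 317 and 355 CPM in siWdr5 and 143 to 314 CPM in the other knockdowns, with none of 5 passing.

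Genes for secreted signals changed in both directions. Of 34 TGF-beta, BMP, FGF and Wnt ligands and antagonists, 6 rose and 2 fell (median 0.31). The passing share, 23.5%, stood beside 6.34% of all tested genes. Gdf10, a BMP-family ligand, was at 39.4 and 42.7 CPM in siWdr5, 12.9 and 11 in siBrca1, 18.1 and 11.8 in siBard1 and 19.4 and 15.2 in the nt control, a difference of 1.64 (SE 0.18, adjusted p = 0.00487). Both siWdr5 libraries were above the other 6. The fallers were Dkk2, a modulator of Wnt co-receptors, at 14.7 and 19.8 CPM against 39.0 to 68.9 CPM (log2 difference −1.52, SE 0.21, adjusted p = 0.0112), and Bmp3, a BMP that antagonises osteogenic BMPs, at 3.24 and 3.11 CPM against 4.39 to 18.6 CPM (−1.61, SE 0.30, adjusted p = 0.0236). In the IGF axis 4 of 14 genes rose (28.6%, beside 3.9% of all tested genes) and none fell. They were Igfbp5 (1.53, adjusted p = 0.0497), Igfbp2 (0.90, adjusted p = 0.0351), Stc1 (0.85, adjusted p = 0.0326) and Igfbp7 (0.81, adjusted p = 0.0497).

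Among 29 chemokine, interleukin and acute phase genes tested, 7 rose, none fell and 22 did not pass, with 9 differences below 0 and a median of 0.57. The share that rose, 24.1%, stood beside 3.9% of all tested genes. Ccl8, which attracts monocytes, was at 12.1 and 15.7 CPM in siWdr5, 5.08 and 4.59 in siBrca1, 3.52 and 4.61 in siBard1 and 3.82 and 4.36 in the nt control (1.65, SE 0.20, adjusted p = 0.0074). The siWdr5 libraries were above the other 6. Ppbp, a CXC chemokine, rose by 1.92 (adjusted p = 0.0272), the complement component C4b by 1.46 (adjusted p = 0.022) and Selp, the adhesion receptor P-selectin, by 1.33 (adjusted p = 0.0331). Markers of macrophages, of which 7 of 10 were measured, summed to 13.6 and 22.3 CPM in siWdr5 and 15.7 to 27.4 CPM in the compared libraries and so overlapped. Endothelial markers summed to 28.6 and 35.8 CPM against 18.4 to 22.9 CPM. That sum was mainly Tek, the angiopoietin receptor, at 367 and 855 reads in siWdr5 and 179 to 354 in the compared libraries. Emcn had 0 or 1 read in every day 6 library. Cdh5 had 4 and 5 reads in siWdr5 against 4 to 13, and Pecam1 12 and 8 against 12 to 35. Kdr had 8 and 19 reads against 9 to 12, and Vwf 12 and 30 against 4 to 21, all without scaling to library size. The part of either cell type in these rises was not tested.

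**Figure D3:**
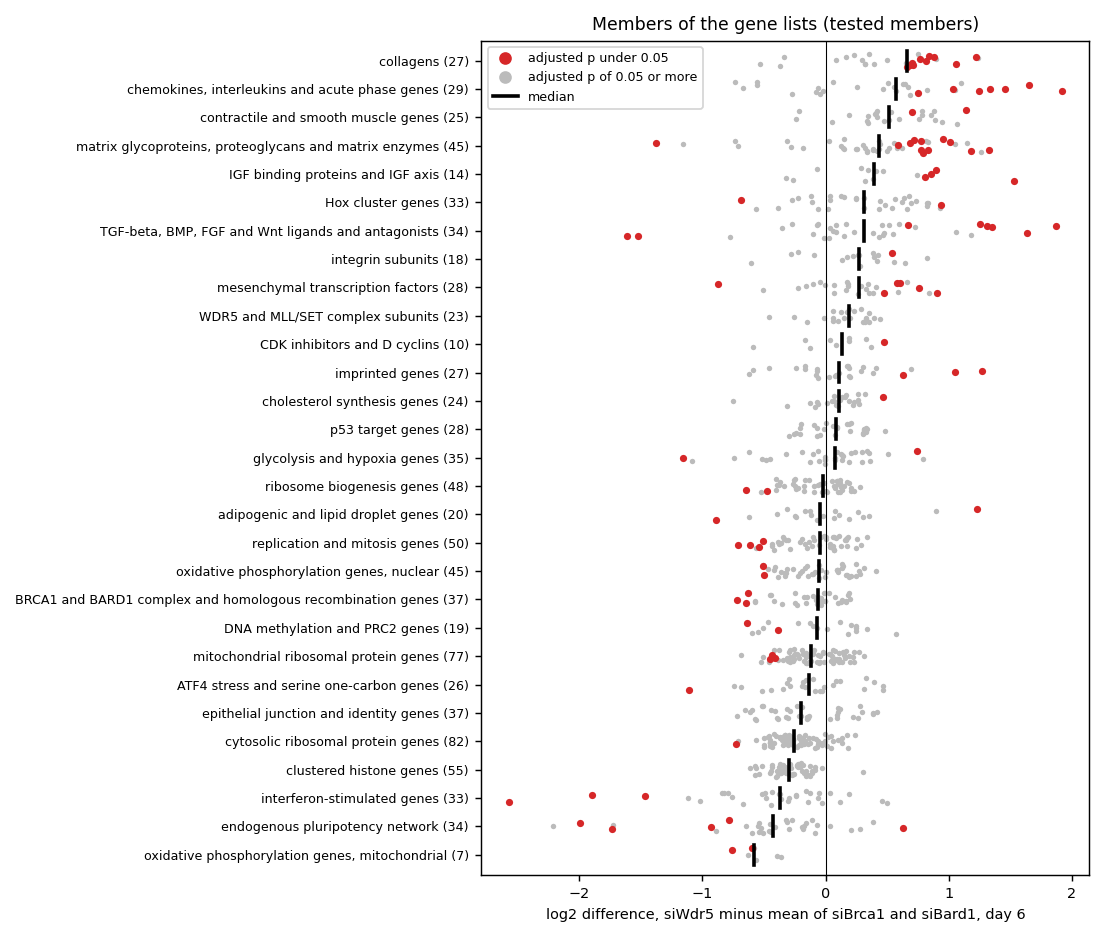
Log2 difference between siWdr5 and the mean of siBrca1 and siBard1 at day 6 for each tested member of the gene lists (number tested in brackets), 1 point per gene, red at adjusted p below 0.05 and grey otherwise, with the list median as a black bar. Collagens (median 0.66) and chemokines (0.57) lie farthest to the right, and pluripotency genes (−0.43) and mitochondrially encoded oxidative phosphorylation genes (−0.58) farthest to the left.

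Of 34 genes of the endogenous pluripotency network tested, 4 fell in siWdr5, 1 rose and 29 did not pass. The passing share was 14.7%, beside 6.34% of all tested genes. The median was −0.43, and 29 of the 34 had a difference below 0, beside 5897 of all 14028 tested genes. Nanog, a homeobox factor of the pluripotency network, stood at 29.8 and 12.8 CPM in siWdr5, 126 and 38.2 in siBrca1, 64.6 and 57.1 in siBard1 and 55.5 and 49.3 in the nt control. The siWdr5 libraries were the lowest of the 8, and the siBrca1 replicates were far apart. The difference of −1.73 (SE 0.41, 95% interval −2.65 to −0.81, adjusted p = 0.0404) passed the test, but not against siBrca1 (adjusted p = 0.0619) or siBard1 (adjusted p = 0.118) alone. Dppa3, a maternal and germline factor also known as Stella, was at 5.17 and 3.46 CPM against 12.7 to 26.9 CPM in the other knockdowns and 14.5 and 9.94 CPM in the nt control (−1.99, SE 0.30, adjusted p = 0.0134). Fgf4, an embryonic stem cell growth factor, fell by 0.93 (adjusted p = 0.0462) and Tdh, a threonine dehydrogenase of embryonic stem cells, fell by 0.78 (adjusted p = 0.0224). The riser was Alpl, the alkaline phosphatase used as a pluripotency stain (0.63, adjusted p = 0.027). Dppa5a, named like Alpl after its values were seen, had 554 and 166 reads in siWdr5 and 2512 and 509 in siBrca1, and its difference of −2.21 did not pass (adjusted p = 0.0933).

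Among the other large falls, Morc1, needed to silence transposons in the male germline, was at 2.27 and 0.594 CPM in siWdr5 against 2.59 to 15.0 CPM, a difference of −2.52 (SE 0.58, adjusted p = 0.0369). Its nt values of 2.46 and 2.53 CPM lay next to siWdr5 replicate 1. Fbxo15, an F-box gene used as a reprogramming reporter, was at 6.06 and 2.04 CPM against 8.43 to 24.0 CPM (−1.82, adjusted p = 0.0449). Mylpf, a myosin light chain of fast muscle, was at 64.1 and 22.2 CPM in siWdr5 and 328 and 83.5 in siBrca1 (−1.90, adjusted p = 0.0489). For Nanog, Fbxo15 and Mylpf, siWdr5 replicate 2 was the lower and siBrca1 replicate 1 the highest library. The 8 pluripotency markers summed to 142 and 51.7 CPM in siWdr5, 156 to 488 CPM in the compared knockdowns and 159 and 176 CPM in the nt control, and 1 of the 6 tested, Nanog, passed. Most of that sum was Dppa5a, Nanog and Tdgf1. Lin28a overlapped, with 95 and 123 reads in siWdr5 and 61 to 160 in the compared knockdowns. Esrrb had 90 and 75 against 56 to 100 reads, neither scaled to library size. The part of the marker sum in these falls was not tested.

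None of the 4 reprogramming factors passed (limma, 0 also at an unadjusted p below 0.05). Pou5f1 stood at 174 and 90.2 CPM in siWdr5 and 130 to 231 CPM in the siBrca1 and siBard1 libraries (−0.43, SE 0.23, adjusted p = 0.243). Sox2 was at 177 and 95.5 CPM against 127 to 231 CPM (−0.33, SE 0.23, adjusted p = 0.379). Cassette and endogenous transcripts are counted together in these values. In both genes siWdr5 replicate 1 lay inside the range of the other groups and replicate 2 below it.

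The Nanog promoter is shown because it holds the letters of the octamer and SOX composite motif, known as the site that OCT4 and SOX2, both in the cassette, bind together. In the RefSeq window from 250 bases before to 50 bases after the upstream start (GRCm38.p6, chr6:122707239-122707538, plus strand), capitals mark the octamer letters TGCAT and the SOX letters ACAA with any 1 base between them, searched on both strands, beginning 73 bases before the start.
Nanog: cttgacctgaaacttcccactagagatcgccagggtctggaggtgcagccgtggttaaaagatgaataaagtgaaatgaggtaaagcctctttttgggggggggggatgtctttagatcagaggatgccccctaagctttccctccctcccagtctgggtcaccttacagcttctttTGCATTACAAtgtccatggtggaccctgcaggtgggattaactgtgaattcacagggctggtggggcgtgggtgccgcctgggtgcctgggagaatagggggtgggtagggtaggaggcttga
The motif was in a window of 0.340% of 27025 genes, and among the 24 tested pluripotency genes with a window only in that of Nanog. A match describes the letters, not binding in these cells.

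Interferon-stimulated genes contained the largest fall of all. Of 33 tested, 3 fell and none rose, with a median of −0.37. The passing share, 9.09%, stood beside 6.34% of all tested genes passing in either direction and 2.45% falling. All 3 also passed the fold threshold, where 0.342% of all tested genes were called lower. Ifit1, an antiviral protein that binds foreign RNA, was at 0.481 and 0.976 CPM in siWdr5 (5 and 22 reads), 6.99 and 3.17 in siBrca1 (79 and 45 reads), 2.17 and 5.69 in siBard1 (27 and 118 reads) and 1.26 and 1.73 in the nt control. The siWdr5 libraries were below the nt control and the siBrca1 and siBard1 libraries above it. The log2 difference was −2.57 (SE 0.46, 95% interval −3.60 to −1.54, adjusted p = 0.022). Oasl2, of the oligoadenylate synthetase-like family, was at 0.412 and 0.976 CPM in siWdr5, 4.21 and 2.29 in siBrca1, 1.11 and 2.87 in siBard1 and 1.02 and 1.33 in the nt control (−1.89, SE 0.47, adjusted p = 0.0444). Again the siWdr5 libraries were the lowest, while siBard1 replicate 1 lay inside the nt range. Rtp4, an interferon-induced receptor transporter, fell by 1.47 (adjusted p = 0.0436), at 0.619 and 1.17 CPM against 1.64 to 3.2 CPM, with 13.9% of its exon bases shared with a same-strand gene. All 3 genes had at most 27 reads in either siWdr5 library.

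The promoters of the first 2 genes are set side by side, since both are interferon-induced and fell together. Capitals mark matches to GAAANNGAAA or its reverse complement TTTCNNTTTC, the core of the interferon-stimulated response element, in the windows chr19:34640639-34640938 for Ifit1 and chr5:114896684-114896983 for Oasl2 (GRCm38.p6, plus strand, RefSeq).
Ifit1: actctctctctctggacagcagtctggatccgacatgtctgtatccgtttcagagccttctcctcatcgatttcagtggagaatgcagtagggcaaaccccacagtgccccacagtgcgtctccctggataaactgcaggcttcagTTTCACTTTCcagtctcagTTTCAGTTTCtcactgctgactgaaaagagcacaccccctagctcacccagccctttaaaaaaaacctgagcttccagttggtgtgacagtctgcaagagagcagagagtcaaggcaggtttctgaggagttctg
Oasl2: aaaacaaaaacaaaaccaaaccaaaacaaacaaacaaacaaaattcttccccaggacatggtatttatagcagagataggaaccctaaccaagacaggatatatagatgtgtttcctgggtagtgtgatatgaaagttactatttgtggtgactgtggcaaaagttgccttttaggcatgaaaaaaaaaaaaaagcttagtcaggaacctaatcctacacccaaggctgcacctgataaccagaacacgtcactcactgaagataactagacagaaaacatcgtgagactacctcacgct
Ifit1 had 2 matches, and the Oasl2 window had none with these letters. Of the 26 tested interferon genes with a window 13 had a match (50%), beside 3.99% of all 27025 genes with a window.

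Of 37 epithelial junction and identity genes tested none passed the adjusted p (limma). At an unadjusted p below 0.05 there were 9, beside 3901 of all 14028 tested genes. The median was −0.20, made up of −0.45 against siBrca1 and 0.0069 against siBard1. Epcam, an epithelial adhesion molecule, was at 68.7 and 46.3 CPM in siWdr5 and 69.2 to 105 CPM in the other knockdowns (−0.66, adjusted p = 0.0639), and Jup, the junction protein plakoglobin, differed by 0.39 (adjusted p = 0.0574). The 6 epithelial markers summed to 473 and 342 CPM in siWdr5 and 376 to 569 CPM in siBrca1 and siBard1, so these ranges overlapped. None of the 23 WDR5 and MLL/SET complex subunits passed either, with a median of 0.19 and 10 at an unadjusted p below 0.05, the closest being Setd1b (0.44, adjusted p = 0.0512) and Ncoa6 (0.39, adjusted p = 0.0619).

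Repair and replication genes showed a few small falls. Among 37 genes of the BRCA1 and BARD1 complex and homologous recombination, 3 fell: Fancb (−0.72, adjusted p = 0.0397), the single-strand binding subunit Rpa3 (−0.64, adjusted p = 0.0331) and the checkpoint kinase Chek1 (−0.63, adjusted p = 0.0313). Chek1 was at 37.6 and 27.8 CPM in siWdr5, 53 and 46.6 in siBrca1 and 49.4 and 51.5 in siBard1. Among 50 replication and mitosis genes 4 fell, among them Bub1 (−0.71), Nusap1 (−0.61) and Orc6 (−0.54), with adjusted p from 0.0283 to 0.038. The shares, 8.11% and 8% of the lists, stood beside 6.34% of all tested genes passing in either direction and 2.45% falling. Both medians were near 0 (−0.06 and −0.05). None of 28 p53 target genes passed, 6 had an unadjusted p below 0.05, and closest was Btg2 (0.48, adjusted p = 0.0511).

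For protein synthesis and respiration few genes passed. Of 82 cytosolic ribosomal protein genes 71 had a difference below 0 (median −0.26), of which only Rpl39 passed (−0.73, adjusted p = 0.0349). Of 7 mitochondrially encoded oxidative phosphorylation genes all were below 0 and 2 fell, mt-Nd6 (−0.76, adjusted p = 0.0192) and mt-Nd2 (−0.60, adjusted p = 0.0484). That share, 28.6% of only 7 genes, stood beside 2.45% of all tested genes. The nucleolar gene Nop58 fell by 0.65 (adjusted p = 0.0155) and Utp14a by 0.47 (adjusted p = 0.0331), the only 2 of 48 ribosome biogenesis genes to pass, around a median of −0.02 with 23 differences above 0 and 25 below. Of 77 mitochondrial ribosomal protein genes 3 fell, Mrps22 (−0.45), Mrpl47 (−0.44) and Mrpl50 (−0.41), and of 45 nuclear oxidative phosphorylation genes 2 fell, Cox6c (−0.50) and Uqcrc2 (−0.50), around a median of −0.05. The passing shares of these 4 lists of nuclear-encoded genes, 1.22% to 4.44%, all of them falls, were under the 6.34% of all tested genes in either direction. Beside them, 2.45% of all tested genes fell. Clustered histone genes had 54 of 55 differences below 0 with none passing, 1 at an unadjusted p below 0.05, and a median of −0.30. That median was 0.12 without siWdr5 replicate 2 and −0.71 without siWdr5 replicate 1.

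The remaining lists held scattered changes, beside the 6.34% of all tested genes that passed in either direction. Passing shares were 3.85% for ATF4, 6.06% for Hox, 5.71% for glycolysis, 5.56% for integrin and 4.17% for cholesterol genes. They were 11.1% for imprinted genes, 10.5% for DNA methylation and PRC2 genes, and 10% for adipogenic genes and for D cyclins with CDK inhibitors. Dlk1, Plagl1 and Meg3 were the 3 of 27 imprinted genes to rise (1.27, 1.05 and 0.63), the first at 20.3 and 20.2 CPM in siWdr5 against 6.26 to 10.3 CPM. Slc7a11, the cystine transporter driven by ATF4, was the only one of 26 ATF4 and one-carbon genes to pass, at 83.7 and 131 CPM against 169 to 315 CPM (−1.11, adjusted p = 0.034). Apoe fell by 0.89 (adjusted p = 0.0357) and Zfp423 rose by 1.23 (adjusted p = 0.022) among 20 adipogenic genes. Of 33 Hox genes Hoxb9 rose (0.94) and the distal gene Hoxd13 fell (−0.68, adjusted p = 0.0269). PRC2 genes Mtf2 (−0.64, adjusted p = 0.0151) and Eed (−0.39, adjusted p = 0.0459) fell among 19 DNA methylation and PRC2 genes. Single members passed among integrin subunits (Itga3, 0.54), D cyclins and CDK inhibitors (Ccnd3, 0.48) and cholesterol synthesis genes (Mvk, 0.47), and 2 in opposite directions among 35 glycolysis and hypoxia genes (Ankrd37, −1.16; P4ha2, 0.75).

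The knockdowns of the heterodimer partners were also compared singly. Against siBrca1 alone 120 genes were called (0.855%), 72 higher and 48 lower, and against siBard1 alone 54 genes (0.385%), 38 higher (0.271%) and 16 lower (0.114%), with 83 passing the adjusted p without the fold threshold (0.592%), 22 of them lower (0.157%). These counts depend on the method and on single libraries. With limma-voom 133 and 122 genes were called, and with no trend on the mean 0 and 0. Leaving out either siWdr5 library lowered both counts. Against siBrca1 the split turned to 63 higher and 67 lower when libraries were centred on the median gene, and to 41 higher and 112 lower without siBrca1 replicate 1. Of the 167 genes called against their mean, 84 were called against siBrca1, 46 against siBard1, 32 against both and 69 against neither. Agtr2, the angiotensin II type 2 receptor, was among those called against both, at 21.5 and 15.4 CPM in siWdr5, 63.1 and 76.9 in siBrca1, 54.8 and 86.8 in siBard1 and 65.6 and 66.2 in the nt control. Its difference was −1.93 from siBrca1 (adjusted p = 0.00649) and −1.92 from siBard1 (adjusted p = 0.00696). The gene lies on the X chromosome (21484544 to 21489164, plus strand, mm10).

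Between siBrca1 and siBard1 no gene was called (0%) with limma or with limma-voom on recovered reads, and 725 had an unadjusted p below 0.05, with a smallest adjusted p of 0.0552. Some genes nevertheless owed their difference from siWdr5 mainly to siBard1. Msx1, a homeobox factor of limb and craniofacial mesenchyme, was at 13.6 and 9.37 CPM in siWdr5, 11.5 and 12.9 in siBrca1, 12.7 and 12 in the nt control and 35.8 and 34.4 in siBard1. The difference of siWdr5 was −1.64 from siBard1 (adjusted p = 0.00696) and −0.11 from siBrca1 (adjusted p = 0.741). Tfap2b, a neural crest transcription factor, followed the same order (−1.99, adjusted p = 0.0311, and −0.85, adjusted p = 0.129), at 36.8 and 41.6 CPM in siBard1 and 6.55 to 21.3 CPM in the other 6 libraries. In the other direction, the cytokine receptor gene Il31ra differed from siBrca1 by 2.60 (adjusted p = 0.0425) and from siBard1 by 0.95 (adjusted p = 0.346). Pkhd1l1 was higher by 2.65 against siBard1 (adjusted p = 0.0479), with siWdr5 replicates at 16.8 and 5.29 CPM, and the second of them was inside the siBrca1 range.

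The same contrast at day 3 rests on other libraries. There 407 genes were called (2.9%), 170 higher (1.21%) and 237 lower (1.69%), and 1470 passed the adjusted p (10.5%), 607 higher (4.33%) and 863 lower (6.15%). Of the 119 genes called higher at day 6, 115 had a difference above 0 at day 3, 84 with adjusted p below 0.05 and 40 called, and their median day 3 difference was 0.82. Serpina3n had the same difference on both days (2.08 at day 3, adjusted p = 1.12e-06). Gdf10 differed by 1.78 at day 3 (adjusted p = 2.96e-05) and Ccl8 by 2.68 (adjusted p = 4.66e-05), and neither changed between the days past the test. Of the 48 genes called lower at day 6, 36 had a difference below 0 at day 3, 9 with adjusted p below 0.05 and 6 called (median −0.42). Ifit1 (−2.41, adjusted p = 0.0011) and Oasl2 (−1.80, adjusted p = 0.0226) were among these, whereas Nanog (−0.64, adjusted p = 0.486) and Agtr2 (−0.02, adjusted p = 0.983) were not. Over all 14028 genes the differences of the 2 days had the same sign for 64.1% and correlated with Pearson r 0.40 and Spearman rho 0.39, across genes, which are not independent replicates.

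**Figure D4:**
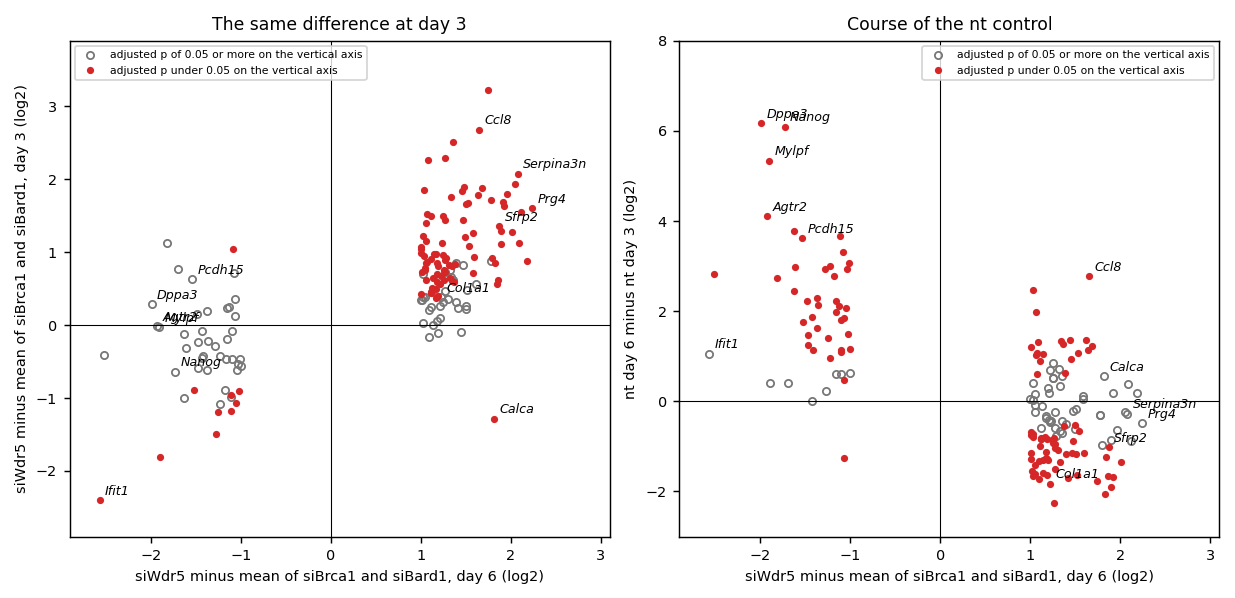
The 167 genes called at day 6, 1 point per gene, with the day 6 log2 difference on the horizontal axis and, on the vertical axis, the same difference at day 3 (left) or the log2 change in nt between the days (right), red where the vertical value had adjusted p below 0.05. At day 3, 115 of 119 higher genes lie above 0, and in the nt control 39 of 48 lower genes rose with adjusted p below 0.05.

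Whether the contrast changed between the days was tested in 1 model of all 16 libraries. The difference changed for 115 genes (0.82%), 82 upwards and 33 downwards, with 185 at an adjusted p below 0.05 (1.32%), 144 of them upwards (1.03%) and 41 downwards (0.292%), and 14 of the 167 were among them. After quantile normalization 67 genes were called, 41 upwards and 26 downwards. Without siWdr5 day 3 replicate 1 no gene was called, without siWdr5 day 3 replicate 2 there were 5, and without siWdr5 day 6 replicate 2 there were 4. The lower level of Agtr2 against siBrca1 and siBard1 was seen at day 6 and not at day 3, when the gene was rare. Its 8 day 3 libraries were at 0.558 to 4.42 CPM, with siWdr5 at 1.5 and 1.13, and the difference moved by −1.91 (SE 0.39, adjusted p = 0.0321). Dppa3 had 0 or 1 read in each day 3 library, under the 3 reads taken as a floor, so the size of its shift cannot be given. Calca, which encodes calcitonin and the peptide CGRP, turned from 0.447 and 0.468 CPM in siWdr5 against 0.978 to 1.38 CPM in siBrca1 and siBard1 at day 3 to 3.65 and 5.33 against 0.888 to 1.78 CPM at day 6. Its difference shifted by 3.1 (adjusted p = 0.0085), from below 0 (−1.29, adjusted p = 0.0309) to above it (1.81, adjusted p = 0.022). The siWdr5 values of day 3 rest on few reads: 3 reads make 0.187 and 0.199 CPM there, and the prior adds 2.19 and 2.05 reads. Igfbp2 also turned, with siWdr5 at 114 and 115 CPM against 162 to 245 CPM at day 3 and 114 and 127 against 49.3 to 93.4 CPM at day 6. The siWdr5 level was thus nearly the same on both days, and the siBrca1 and siBard1 levels came down.

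The time course of nt, whose libraries are on neither side of the contrast, gives these genes a time scale. In nt, 1659 genes were called between the days (11.8%), 1094 rising (7.8%) and 565 falling (4.03%), and 6474 passed the adjusted p (46.2%), 2667 rising (19%) and 3807 falling (27.1%). Of the 48 genes lower in siWdr5, 39 (81.2%) rose in nt and 1 fell, with a median nt change of 1.93. Dppa3 went from 1 and 0 reads at day 3 to 179 and 123 reads at day 6. Nanog rose there by 6.09, Mylpf by 5.34, Agtr2 by 4.10, Trh (thyrotropin-releasing hormone) by 3.77 and the protocadherin gene Pcdh15 by 3.62, all with adjusted p below 0.05. Of the 119 genes higher in siWdr5, 53 (44.5%) fell in nt and 19 (16%) rose, with a median of −0.60. Col1a1 fell in nt by 1.83 (adjusted p = 1.13e-05) and Sfrp2 by 1.01 (adjusted p = 0.00988), while Ccl8 rose by 2.78 (adjusted p = 1.46e-06) and Gdf10 by 1.13 (adjusted p = 0.000316). Over all tested genes the day 6 contrast and the nt course correlated with Pearson r −0.48 and Spearman rho −0.48, again across genes. Trh and Pcdh15 were themselves lower in siWdr5, at 22.7 and 28.5 against 47.3 to 100 CPM (−1.63, adjusted p = 0.0155) and at 3.58 and 2.73 against 7.2 to 11.4 CPM (−1.54, adjusted p = 0.0112).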

How the data were processed

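Bulk RNA sequencing libraries of nt control, siWdr5, siBrca1 and siBard1 MEFs at days 3 and 6 (2 per group, 16 in all) were analysed. The authors removed ribosomal RNA, sequenced total RNA paired-end, aligned reads with STAR (2.5.2b) to mm10 (GRCm38) and deposited 1 table of log2 CPM made with edgeR (3.20.9), with scaling between libraries and a prior added to each count. The read counter, annotation, strand setting and low-count filter are not given in the sources used here. The study called genes with DESeq2 on read counts, which were not used here.

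CPM in the text is 2 to the power of the deposited log2 values and includes the prior. All values returned whole reads (within 3.45e-06), which gave 11169738 to 26832534 reads per library (median 14618683.5). Log2 differences, which the prior shrinks for rare genes, were fitted with limma 3.58.1 (R 4.3.3), 1 mean per group, a trend on the mean, and all 8 libraries of a day (all 16 for changes between days). The nt libraries enter the day 6 fit only through the spread. P-values were two-sided, with Benjamini-Hochberg adjustment over the 14028 genes whose log2 CPM averaged 0 or more. The fit and the return to reads were tested on simulated data.

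Named genes were the 12 largest rises and falls among called genes with non-overlapping groups and at least 2 CPM on the higher side, leaving out predicted genes and small RNAs, up to 4 members per gene list (the 2 lowest p where none passed), 4 per direction in the other comparisons, and the siRNA targets. These lists, members and rules were chosen with earlier results of these data known. Gene positions come from GENCODE for GRCm38, found for 18969 of 18990 identifiers. Alternatives were other filters, libraries, pseudocounts (1 and 0.1 CPM), scalings, thresholds, a replicate block, limma-voom on recovered reads and leaving out each library.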

Additional observations from a re-analysis of the deposited data

Results flagged for a closer look

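Whether the difference between siWdr5 and the mean of siBrca1 and siBard1 changed from day 3 to day 6 was tested as an interaction in limma over all 16 libraries, and it changed for 115 genes. No gene was called without siWdr5 day 3 replicate 1, 5 without siWdr5 day 3 replicate 2 and 4 without siWdr5 day 6 replicate 2. With 2 libraries a group, single outlying libraries were not tested. Among the named genes the difference shifted upwards, on the log2 scale, by 3.1 for Calca (adjusted p = 0.0085), 2.73 for Slc13a5 (0.0328), 2.62 for the sodium channel gene Scn3a (0.0321), 2.35 for Fstl4 (0.0256), 1.75 for Igfbp2 (0.00812) and 1.25 for Clca3a1 (0.049). Downward shifts were −3.34 for Aadac (0.012), −2.72 for Ptpn22 (0.0434), −2.53 for the gap junction gene Gjb2 (0.049), −2.51 for the matrix metalloprotease Mmp3 (0.00564), −2.28 for Dppa3 (0.0351, a size set by the prior since it had 0 or 1 read in each day 3 library), −2.17 for Pcdh15 (0.0192), −1.91 for Agtr2 (0.0321), −1.57 for Postn (0.0256), −0.72 for the origin recognition gene Orc6 (0.0339) and −0.68 for Nop58 (0.0387).

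Mmp3 was at 11.5 and 11.7 CPM in siWdr5 at day 3, 2.11 to 4.34 CPM in siBrca1 and siBard1, and 11.3 and 7.55 CPM in the nt control. At day 6 siWdr5 was at 95 and 78.7 against 116 to 209 CPM in siBrca1 and siBard1. That day 6 difference of −0.71 did not pass by itself (adjusted p = 0.0745, limma). Scn3a was at 4.86 and 5.11 CPM in siWdr5 at day 3 and 10.0 to 17.2 CPM in siBrca1 and siBard1, with the nt control at 4.75 and 5.04, next to siWdr5.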

How the results depend on the processing

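Of 2093 values of the 106 named genes under alternatives, 1568 kept direction and side of the threshold, 488 no longer passed, 30 newly passed and 7 changed sign. The sign changes were in genes that passed in neither setting: Sox2, Pou5f1, Gjb2, Brca1 and Bard1, and no passing gene reversed. Serpina3n and Sfrp2 passed in all 20 of theirs (highest adjusted p 0.0473 for each), Nanog in 13 of 20 and Oasl2 in 7 of 19. Of 620 list medians 12 changed sign. The replicate block gave 215 calls against 167, and 191 against siBrca1, 108 against siBard1 and 2 between siBrca1 and siBard1. Under the block Setd1b, Ncoa6, Jup, Btg2 and Hist1h1a passed as well (adjusted p 0.0335 to 0.0477), and no named gene was lost. Replicate differences of the day 6 groups correlated between −0.07 and 0.260, not above 0.1 for every pair, and no label says that equal numbers share an experiment, so the numbers were not taken as pairs. Leaving out single libraries gave 4 to 265 calls in the day 6 contrast, 2 to 180 against siBrca1, 0 to 231 against siBard1, 0 to 2 between the partners, 177 to 552 at day 3, 0 to 219 for the change between days and 1440 to 1776 in nt. A lone library was assumed to vary like the other groups. The day 6 contrast had 4 calls without siWdr5 replicate 2, 100 without siWdr5 replicate 1, 76 without siBard1 replicate 2, 265 without siBard1 replicate 1, and 92 and 93 without nt replicates 1 and 2, which change only the spread. Without a fold threshold 890, 400, 83, 1470, 185 and 6474 genes passed (day 6, against siBrca1, against siBard1, day 3, change between days, nt), and above 1.5-fold 521, 356, 83, 949, 183 and 4243. With no trend on the mean, calls fell to 10, 0, 0 and, for the change between days, 51. A mean log2 CPM of at least 2 left 100 at day 6, 187 at day 3 and 1021 in nt, since fewer genes were tested. Fitting only the compared libraries gave 96 at day 6 and 202 against siBrca1, and all 16 libraries gave 251 against siBrca1, 201 against siBard1 and 1 between the partners. A pseudocount of 1 CPM gave 171 at day 3, quantile normalization 67 for the change between days, and limma-voom 122 against siBard1. Centring each library on its median gene turned 72 higher and 48 lower against siBrca1 into 63 and 67. These causes were not tested. Precision is set by 2 libraries a group and, for genes such as Ifit1 with 5 and 22 reads in siWdr5, by counting.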
